A study of Mus musculus with 2 samples.

Results

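The cells described here are keratin-expressing cells of an orthotopic KPC pancreatic tumor, 660 of the 9591 barcodes that passed the filter in the KPC library and of 21335 in the whole series. They are taken as its tumor cells, although 14 of them (cluster 7 below) went against that label. They were chosen by measured values: at least 500 genes, under 10% mitochondrial UMIs, a summed UMI count of Krt8, Krt18 and Krt19 of at least 5, at most 2 UMIs of the endothelial genes Pecam1, Cdh5 and Egfl7 together, at most 1 of the leukocyte gene Ptprc, and at most 1 of the fibroblast genes Lum and Dpt together. These 9 genes are the rule and are not results. The barcodes used for comparison were the other 8931 of the same library and, in particular, the 6466 that passed an endothelial gate (at least 5 UMIs of the 3 endothelial genes and at most 2 of the keratins, with the same limits for the other genes).

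The series holds 2 droplet-based single-cell libraries of sorted tumor blood endothelial cells (BECs), 1 from KPC and 1 from PyMT tumors. The KPC line came from mice with the alleles p48-Cre and p53m/m, among others, in which the p48 (Ptf1a) locus directs Cre to the pancreas, and the PyMT line came from a mammary tumor of MMTV-PyMT mice, in which a mammary tumor virus promoter drives the polyoma middle T antigen. Each line was implanted at 100000 cells into female wild-type C57BL6 mice of 6 weeks, and tumors were digested after 10 days. Cells positive for CD45, EpCAM, Ter119, podoplanin or Annexin V were depleted on beads before BECs were sorted, so that the tumor cells in the KPC library are those that passed an EpCAM depletion and an endothelial sort, and their share is not that of the tumor. Each model is 1 cell line and 1 library, and how many mice were pooled was not given in the sources used here. No comparison therefore has a replicate, no test was made, and every interval covers counting error only.

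Pancreatic ductal adenocarcinoma arises in the exocrine pancreas, where loss of the p53 or p16 tumor suppressors is among its best-known lesions. Its cells keep simple-epithelial keratins of ducts, and many express genes of the stomach surface such as gastrokines and trefoil factors, a programme seen already in precursor lesions. Tumor cells of this disease are also known for low display of MHC class I, for high glucose use, and for antioxidant genes driven by the factor NRF2.

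The 660 gated cells made up 6.88% of the filtered barcodes (exact 95% interval 6.38 to 7.41). They were deep, with a median of 12226 UMIs and 3220.5 genes per cell (lowest 829 and highest 40979 UMIs), against 2953 UMIs in the other barcodes and 3412.5 in the endothelial gate. Their keratin sum had a median of 109 UMIs, with 6 as the lowest and 882 as the highest. Just outside the rule lay 3 barcodes with a keratin sum of 4 that met all other limits, and 0 barcodes had a sum of exactly 5. The endothelial limit was the edge with more barcodes: 144 barcodes with enough keratin exceeded it, 34 of them with a sum of 3, and 2 exceeded the limit for Lum and Dpt. In the gate itself 350 cells had no UMI of the 3 endothelial genes and 310 had 1 or 2.

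The 145 keratin-rich barcodes outside the gate, at a median of 14584 UMIs, carried some tumor genes at levels close to those inside it and others at lower ones. Levels are CPM, the summed UMIs of a gene scaled to the same total in every set. Spp1 stood at 8290.8 CPM in them and 10798.5 in the gate, and Epcam at 156 and 172. Gkn3 was at 11.3 CPM in them and 88.3 in the gate, and Wfdc18 at 9.95 and 61.7. They also carried endothelial genes, with the diaphragm gene Plvap at 453 CPM against 50.9 in the gate and 2660.8 in the endothelial gate. These barcodes are among the 8931 others, so ratios over the endothelial gate are given beside those over all other barcodes. A fibroblast gate (292 barcodes with at least 5 UMIs of Lum and Dpt, at most 4 of the keratins and the same endothelial and leukocyte limits) served as a further reference.

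A gene was called higher or lower at a 2-fold ratio of CPM, among 8090 genes with a mean of at least 10 CPM over both groups. By this rule 820 genes, or 10.1% of those compared, were higher in the gated cells and 1719, or 21.2%, were lower, with a median log2 ratio of -0.19 over all of them. Leaving the other keratin-rich barcodes out of the comparison gave 879 and 1822. The gate was set on the same cells, so these counts, and those for gene lists below, are descriptions. The shares of 10.1% and 21.2% are the background for each list count below. A gene low in the comparison barcodes could pass the level filter only through the gate where it is high, so such counts do not bear on the identity of the cells.

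Epithelial genes outside the rule were present in the gated cells. The 21 listed genes summed to 2902.9 CPM in the gate, 237 in the other barcodes and 81.8 in the endothelial gate. Of these, 12 passed the level filter, several of them only through the gate, and 9 did not, among them Grhl2 and Ovol1, at 0.344 CPM each in the gate. Krt7, a keratin of ducts that the gate did not use, reached 1490.6 CPM (1465.1 to 1516.5) against 95.6 in the others and 5.79 in the endothelial gate. Thinned to 2000 UMIs per cell, 81.0% of gated cells had a Krt7 UMI and 1.20% of endothelial-gate barcodes did. Across single gated cells its level ran from 0 through a median of 1221.4 to 9126.8 CPM. The junction gene Cdh1 (E-cadherin) stood at 113 CPM against 6.18, the tight junction gene Cldn6 at 248 against 13.5, and the epithelial factor Elf3 at 98.8 against 5.41. The smallest ratio among those that passed was that of the protease inhibitor gene Spint2, at 396 CPM against 81.0 in the others and 68.5 in the endothelial gate.

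Genes of the pancreatic duct and of the gastric-type programme covered a wide range of levels. The 28 listed genes summed to 14762.5 CPM in the gate, most of it Spp1. Of these, 21 passed the filter, 20 higher and 1 lower, and 7 did not, with no UMI of the mucin gene Muc5ac or of Onecut1 in the gate. Spp1, which encodes the secreted phosphoprotein osteopontin, took 94190 of the 8722548 UMIs of the gate, 10798.5 CPM against 745 in the other barcodes and 85.9 in the endothelial gate. In single cells Spp1 ranged from 0 through a median of 7400 to 146551.7 CPM, and after thinning 96.3% of gated cells had a UMI against 12.4% of endothelial-gate barcodes. The liver and pancreas factor Onecut2 reached 437 CPM against 23.3, with a log2 ratio of 8.92 over the endothelial gate. The membrane protein gene Tm4sf4 stood at 783 against 46.5 CPM, the lectin gene Lgals4 at 694 against 37.6, the mucin gene Muc1 at 221 against 13.0, the stomach claudin gene Cldn18 at 289 against 18.1 and the stomach protease gene Ctse at 286 against 15.1. Factors of pancreatic identity were present at low levels, with Sox9 at 108, Foxa2 at 49.5, Pdx1 at 31.8 and Hnf4a at 28.4 CPM. The 1 lower gene was Ceacam1, an adhesion molecule, at 9.63 CPM against 26.7. Genes listed for acinar and endocrine cells were mostly low, and those for squamous or basal-like cells were split. Of 17 basal-like genes 12 did not pass the filter, and Krt5, Krt6a and Dsg3 had no UMI in the gate. The 5 that passed were all higher, with a median log2 ratio of 3.68, and the list summed to 616 CPM against 69.4 in the others. They were led by Krt20, a keratin also known from gastrointestinal epithelium, at 274 CPM and Sprr1a at 215. Only 2 acinar genes passed, and both stood lower than in the other barcodes, the trypsinogen gene Prss2 at 5.04 CPM against 20.0 and the chymotrypsinogen gene Ctrb1 at 8.02 against 24.4. Over the endothelial gate the same 2 had log2 ratios of 0.89 and 1.30. Of 10 endocrine genes 9 had no UMI in the gate, and Chgb had 1.

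**Figure D1:**
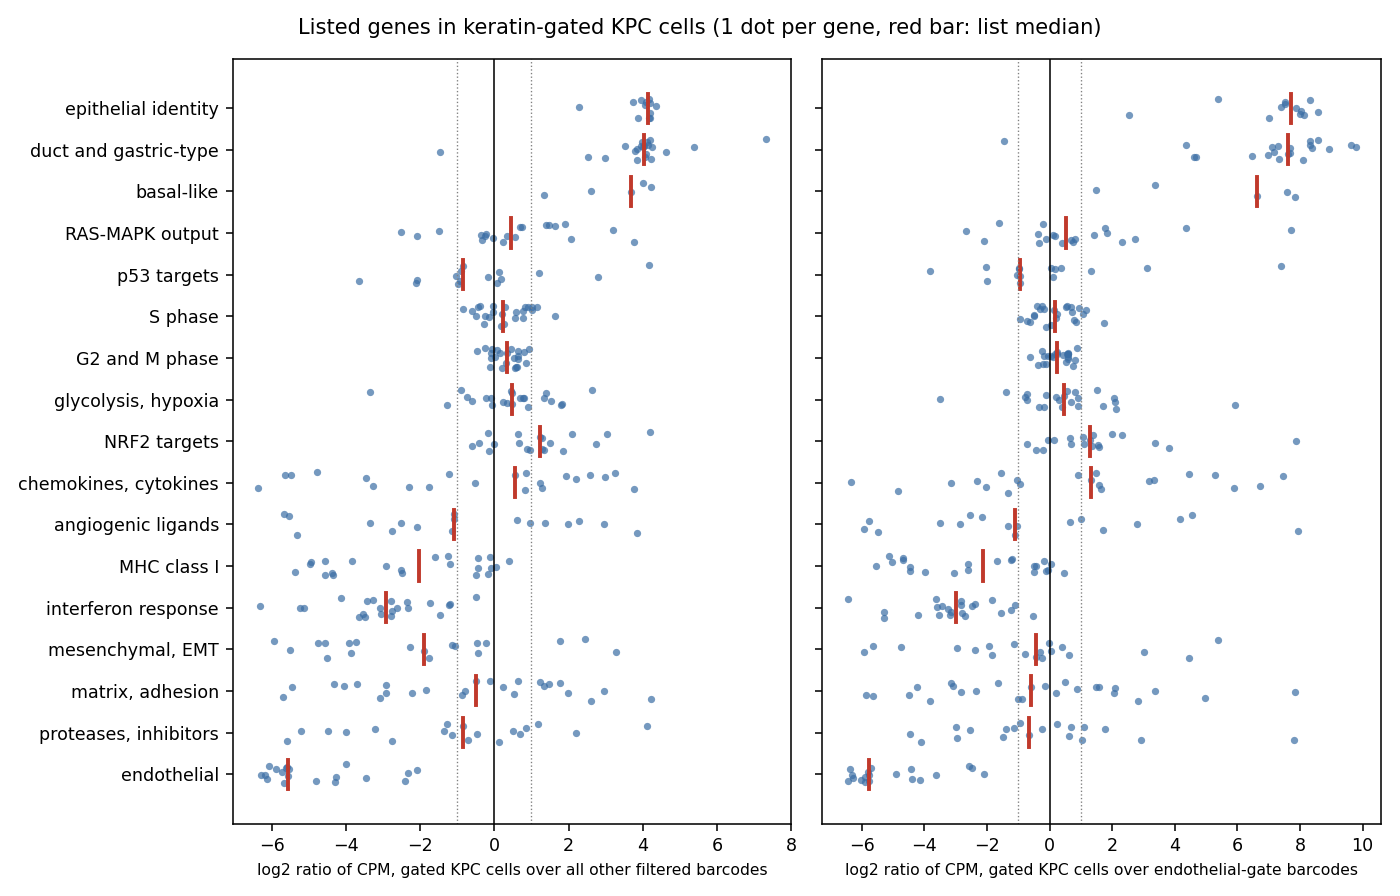
Each dot is 1 listed gene that passed the level filter, the red bars are list medians, the x axes are log2 ratios of CPM in gated KPC cells over all other filtered barcodes (left) and over endothelial-gate barcodes (right), and the dotted lines mark 2-fold. The 19 endothelial genes and 14 of the 22 MHC class I genes lie left of the lower 2-fold line in both panels, Calr lies to the right of 0, and Ceacam1 is the 1 duct gene left of that line. Low genes passed only through the group where they are high, so the position of a list is a description.

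The 15 genes with the highest ratios over the other barcodes were taken from those at 50 CPM or more in the gate. Among these 15 were Wfdc18, Prap1, Agr2, Dmbt1, Gjb1, Gpx2, Gkn1, Gkn3, Foxq1, Apob, Gsta1, Ambp, Phgr1 and Cldn2, at 51.5 (Gjb1) to 236 CPM (Cldn2). Wfdc18, of the whey acidic protein family, stood at 61.7 CPM against 1.25 (log2 ratio 5.62, 5.18 to 6.10), and Prap1 at 79.7 against 1.68 (log2 ratio 5.57). Agr2, a disulfide isomerase of mucus-secreting cells, was at 68.3 against 1.65 CPM, and the secreted scavenger receptor gene Dmbt1 at 76.4 against 2.28. These ratios depended on the gate and the reference. With no UMI of the excluding genes allowed, the log2 ratio of Agr2 fell from 5.37 to 2.25. That of Apob fell from 4.47 to 2.85 and that of Ambp from 4.37 to 3.18. That setting left 343 of the 9591 barcodes in the gate and moved the dropped cells into the reference. These falls are therefore no measure of levels in the gate. Without the other keratin-rich barcodes in the reference, the log2 ratio of Agr2 was 8.55. Gjb1 encodes a connexin, Apob and Ambp proteins that liver secretes, Gsta1 and Gpx2 glutathione enzymes, and Gkn1 and Gkn3 gastrokines of the stomach surface. Over the endothelial gate the log2 ratios of the 15 ran from 4.61 (Gkn1) to 9.47 (Gjb1). Several of these genes came from few cells: 736 of the Gkn3 UMIs lay in 90 cells (cluster 4 below) and 34 in the other gated cells. The same 90 cells held 700 of 796 Gpx2 UMIs, 671 of 852 of Phgr1, 560 of 695 of Prap1 and 486 of 596 of Agr2. Of 538 Wfdc18 UMIs, 211 lay in them and 293 in the 53 cells of cluster 5. Others were widespread: without thinning, 76.7% of gated cells had a UMI of Cldn2 and 50.8% of Foxq1.

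The 10 genes with the lowest ratios, among those at 50 CPM or more in the other barcodes, were Fgl2, Dysf, Sept4, Dgkh, Prex2, Tspan18, Trp53i11, Ebf1, Pcdh17 and Ehd3. Fgl2 stood at 0.573 CPM against 85.9 (log2 ratio -7.23, -8.85 to -6.00) and Pcdh17 at 2.18 against 192. Over the endothelial gate the log2 ratios of these 10 ran from -7.06 to -6.44.

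Of 10 loci known for mutations in this disease or its pathway, 2 were higher and 2 lower, with a median log2 ratio of 0.03. Over all genes compared the shares were 10.1% higher and 21.2% lower. Trp53, altered by design in this line, was at 20.4 CPM (17.5 to 23.6) against 149 in the others, 168 in the endothelial gate, 57.6 in the fibroblast gate and 200 in gated PyMT cells. Trp53 was thus lowest in the gated KPC cells of these 5 sets (log2 ratio -2.87, -3.09 to -2.65, over the other barcodes). The counts do not show which part of the transcript was read. Cdkn2a, which encodes p16 and p19Arf, stood at 289 CPM (278 to 301) against 21.3 in the others and 4.16 in the endothelial gate, and its neighbor Cdkn2b at 84.0 against 28.8. On chromosome 4 of mm10, Cdkn2a spans chr4:89274471-89294653 and Cdkn2b chr4:89306299-89311039. After thinning, 40.4% of gated cells had a UMI of Cdkn2a against 0.824% of endothelial-gate barcodes. Tgfbr2, the type II receptor for TGF-beta, was at 20.3 CPM against 108, and Smad4, its downstream factor, at 24.5 against 24.8.

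Targets of p53 were mixed. Of 15 that passed the filter 3 were higher and 4 lower, with a median log2 ratio of -0.85. Over all genes compared, 10.1% were higher and 21.2% lower. The cell cycle inhibitor gene Cdkn1a was at 59.5 CPM against 254, the polo-like kinase gene Plk2 at 30.7 against 387, the death receptor gene Fas at 6.65 against 28.9 and Btg2 at 205 against 424. Btg2, at a log2 ratio of -1.05, fell short of 2-fold in several settings. It was at -0.65 with no UMI of the excluding genes and -0.94 over the endothelial gate, but at -1.32 with equal weight for every cell. Perp, a desmosome protein gene that epithelia express, was at 103 against 5.75, Gdf15 at 66.3 against 9.62 and Pmaip1 at 43.8 against 19.2. Mdm2, which encodes the ubiquitin ligase of p53, was at 18.2 against 35.9 (log2 ratio -0.98, short of the 2-fold mark).

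Genes driven by RAS and MAP kinase were partly higher. Of 20 that passed, 7 were higher and 3 lower, with a median log2 ratio of 0.45. The EGF receptor ligands Areg (206 CPM, log2 ratio 3.78) and Hbegf (455 against 146), the AP-1 subunit Fosl1 (52.4 against 5.75), the phosphatase Dusp5 (96.5 against 25.6), the ETS factor Etv4 (27.7 against 10.5), Phlda1 (734 against 176) and Ier3 (806 against 288) were the higher ones. The feedback inhibitors Spry1, Spry4 and Spred1 were lower, with Spry1 at 16.6 CPM against 94.4. Dusp6, the phosphatase of ERK, stood at 121 against 146 CPM. Gated cells and comparison barcodes did not differ by 2-fold in the immediate early factor Egr1 (299 against 373).

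A larger share of the gated cells than of the other barcodes held G2 and M phase transcripts. After thinning each cell to 2000 UMIs, 41.3% of 654 gated cells (37.5 to 45.2; 6 shallower cells left out) had at least 2 UMIs of the 24 G2 and M phase genes. The share was 25.2% of 5782 other barcodes (24.1 to 26.3; 3149 left out), 25.7% of 4855 in the endothelial gate and 20.2% of 267 in the fibroblast gate. Without thinning it was 66.4% against 22.9%, and after thinning to 4000 UMIs 50.4% against 42.6%. Summed levels differed less, 1840.5 CPM in the gate against 1445.7 in the others, and of 23 such genes that passed the filter none reached 2-fold in either direction (median log2 ratio 0.33). The ubiquitin-conjugating enzyme gene Ube2c was at 240 CPM against 163 and the survivin gene Birc5 at 248 against 160. Of 24 S phase genes 4 were higher and none lower, beside 10.1% and 21.2% of all genes compared. They were led by the ribonucleotide reductase gene Rrm2 at 231 CPM against 74.3. Among thinned gated cells 51.5% had 2 or more S phase UMIs, against 40.7% of the others. Phase itself was not called.

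**Figure D2:**
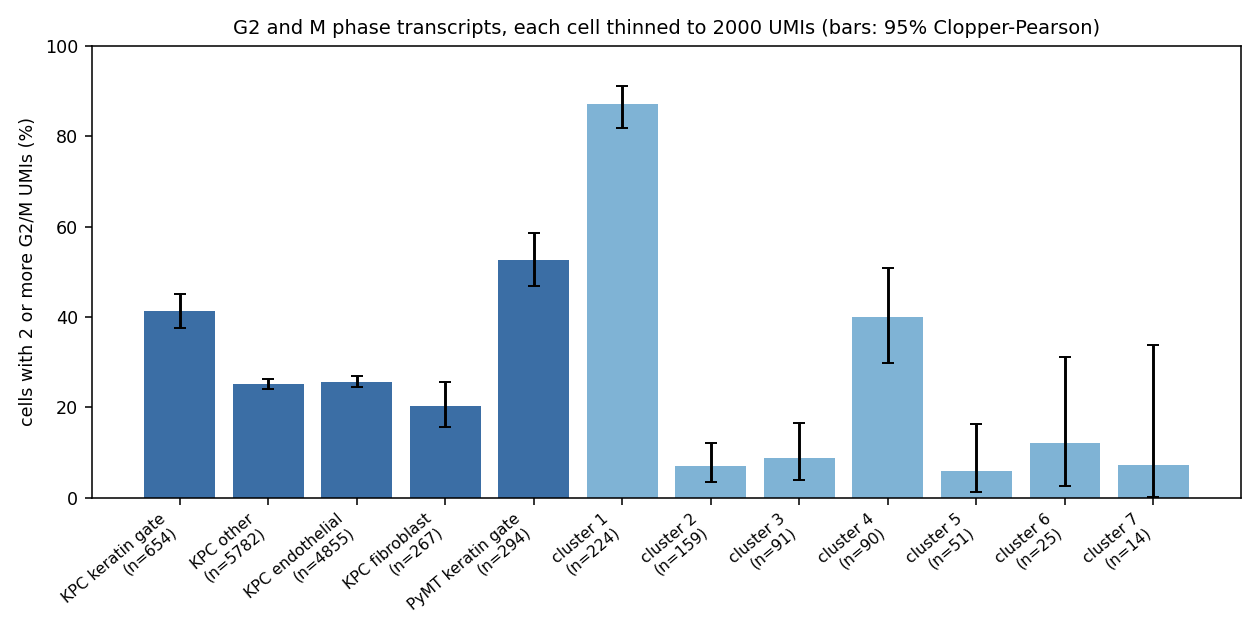
Bars give the share of cells (%) with at least 2 UMIs of 24 G2 and M phase genes after each cell was thinned to 2000 UMIs, for 5 gated sets (dark) and for the 7 clusters of gated KPC cells (light), with exact 95% intervals and the number of cells. The gated KPC cells sit at 41.3%, above the 25.2% of other KPC barcodes, and cluster 1 at 87.1%.

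Glycolysis and hypoxia genes were mixed. Of 23 listed genes that passed the filter 6 were higher and 2 lower, with a median log2 ratio of 0.47. The shares over all genes compared were 10.1% higher and 21.2% lower. Hk2, an inducible hexokinase, had the highest ratio, at 74.9 CPM against 12.0 in the others and 1.23 in the endothelial gate. Pgk1 was at 1228 against 347 CPM, Tpi1 at 763 against 218 and Pgam1 at 644 against 254. Gapdh (2317.1 against 1246.9) and Ldha (1533.6 against 904) stayed under 2-fold, and the glucose transporter gene Slc2a1 stood at 49.2 against 38.7. Hypoxia genes split: the mitophagy receptor gene Bnip3 and the oxygen sensor gene Egln3 were higher, at 51.1 against 17.6 and 24.7 against 9.34, while Adm was at 2.06 against 21.0.

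Of 19 NRF2 targets that passed, 10 were higher and none lower, with a median log2 ratio of 1.23. The glutathione transferase gene Gsta4 stood at 591 CPM (575 to 608) against 32.3 in the others and 2.53 in the endothelial gate, and 55.8% of thinned gated cells had a UMI of it against 0.639% of endothelial-gate barcodes. The cystine transporter gene Slc7a11 had a log2 ratio of 3.04 over the others, malic enzyme gene Me1 was at 148 against 22.3 CPM, glutathione reductase gene Gsr at 459 against 107, and Gclm, a subunit of the enzyme that limits glutathione synthesis, at 195 against 68.9. Pentose phosphate genes G6pdx, Pgd and Tkt were higher by log2 ratios of 1.35, 1.29 and 1.23. Other targets were level. Outside the 19, since its mean was under the level filter, Nqo1, often taken as a marker of this pathway, had 7 UMIs in the gate (0.803 CPM) against 13.5 CPM in the others. Within the 19, Hmox1 was at 27.3 against 36.5 and Txnrd1 at 79.0 against 88.8.

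Antigen presentation genes stood at the opposite end. Of 22 MHC class I pathway genes that passed the filter 14 were lower and none higher, with a median log2 ratio of -2.04 over the other barcodes and -2.14 over the endothelial gate. B2m, the light chain of class I molecules, was at 512 CPM (498 to 528) in the gate, 3886.1 in the other barcodes, 4245.3 in the endothelial gate, 1688.6 in the fibroblast gate and 1229.8 in gated PyMT cells. In single gated cells B2m had a median of 420 CPM and a 10th to 90th percentile range of 138 to 1114.1. The heavy chain genes H2-K1 (133 against 758) and H2-D1 (281 against 1568.8) were lower by log2 ratios of -2.51 and -2.48. After thinning, 23.7% of gated cells had a UMI of H2-K1, against 70.1% of endothelial-gate barcodes. The peptide transporter genes Tap1 and Tap2 (3.32 and 3.10 CPM against 47.9 and 64.4) and the immunoproteasome genes Psmb8 and Psmb9 (9.29 and 3.32 against 220 and 78.5) were lower by log2 ratios of -4.56 to -3.85. Chaperones of the same pathway were not: Calr stood at 858 against 654, Canx at 237 against 258 and Pdia3 at 405 against 456. The immunoproteasome gene Psmb10 had a log2 ratio of -0.08.

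Interferon-stimulated genes followed class I. Of 22 that passed, 21 were lower and none higher, with a median log2 ratio of -2.93. Rsad2 was at 0.573 CPM against 45.6, Iigp1 at 4.13 against 156, the tetherin gene Bst2 at 108 against 554 and the ubiquitin-like gene Isg15 at 12.8 against 143. Ly6e, at 720 against 1006.2 CPM, was the exception. In gated PyMT cells Isg15 stood at 51.2, Bst2 at 155 and Iigp1 at 21.5 CPM, above the KPC cells, and in the fibroblast gate at 191, 352 and 54.1. MHC class II was low, with Cd74 at 7.22 CPM against 30.2, and the ligand of PD-1, Cd274, had 6 UMIs in the gate.

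**Figure D3:**
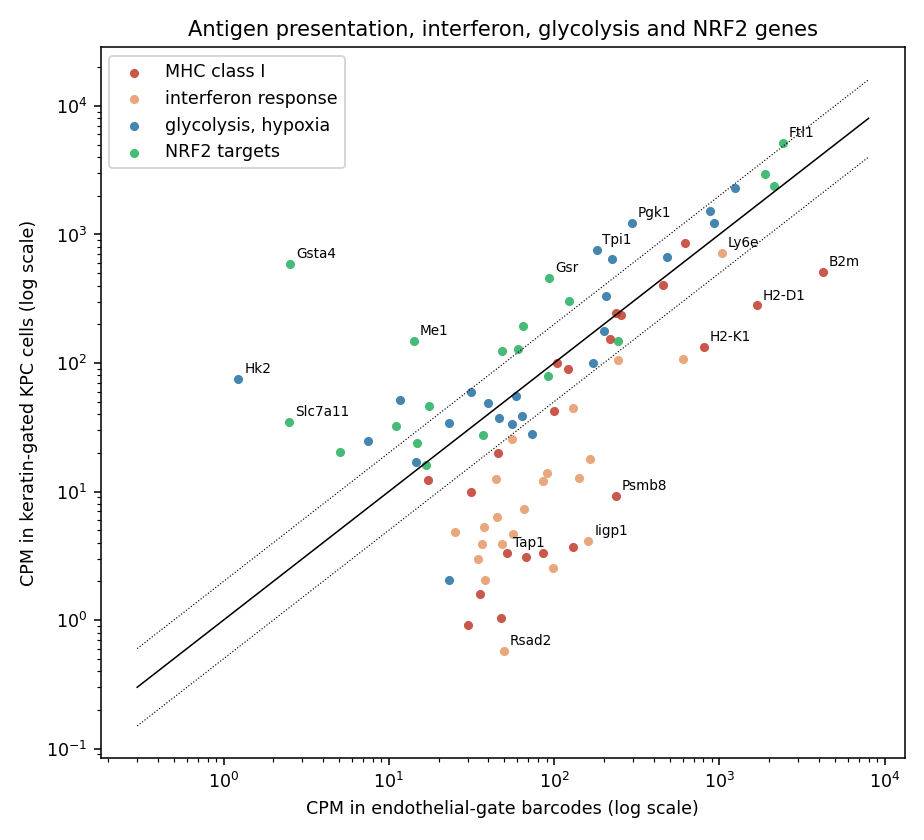
Each dot is 1 gene by its CPM in endothelial-gate barcodes (x) and in keratin-gated KPC cells (y), both on log scales, for the MHC class I, interferon, glycolysis and hypoxia, and NRF2 lists; the solid line marks equal levels and dotted lines 2-fold. B2m, H2-D1 and H2-K1 lie below the lines, Gsta4, Me1 and Hk2 above.

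The interferon-stimulated response element (ISRE), a promoter element known from interferon-induced genes, was searched as GAAA, any 2 bases, GAAA on both strands of the 250 bases before each RefSeq gene start (GRCm38.p6). It was present in 9 of 16 matched interferon genes that passed the filter (56.3%) and in 3 of 20 matched class I genes, against 3.46% of 27025 genes with a promoter in the table. The stretches below are shown because B2m, Bst2 and Isg15, whose levels are given above, hold it. Tap1, Psmb8, Psmb9 and H2-K1 gave no such stretch, for want of a match or of a promoter in the table. Capitals mark the ISRE letters, overlapping copies included.
B2m, chr2:122147523-122147582, plus strand: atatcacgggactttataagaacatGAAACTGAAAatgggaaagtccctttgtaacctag
Bst2, chr8:71537562-71537627, minus strand: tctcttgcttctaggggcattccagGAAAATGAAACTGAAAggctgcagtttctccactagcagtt
Isg15, chr4:156200850-156200921, minus strand: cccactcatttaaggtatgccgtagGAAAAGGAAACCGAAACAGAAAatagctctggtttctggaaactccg
The antioxidant response element of NRF2 was searched in the same way as TGACNNNGC and was found in 4 of 15 matched NRF2 targets (26.7%), 4 of 16 interferon genes, 4 of 20 class I genes and 11.5% of all genes. Gclm holds it on the other strand, shown in capitals in a window that starts 25 bases upstream of it. Gsta4, Gsr, Me1 and Slc7a11 gave no such stretch.
Gclm, chr3:122245398-122245456, plus strand: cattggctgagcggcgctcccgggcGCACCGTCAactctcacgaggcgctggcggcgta
The other 4 motifs were searched in the promoters of the epithelial and duct genes that passed and matched. The AP-1 letters TGANTCA were in 2 of 15 duct genes and 7.82% of all genes (and in 5 of 16 interferon genes), the FOXA letters TGTTTAC in 1 of 15 and 3.54%, and the HNF1 letters (GTTAAT, any base, ATTAAC) and HNF4 letters (CAAAGTCCA) in none of 15 and 0.0111% and 0.451% of all genes. In the 8 matched epithelial genes none of these 4 occurred. These matches describe letters in 1 window and say nothing of binding.

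Secreted signals included several that the endothelial barcodes hardly carried. Of 21 chemokine and cytokine genes that passed, 8 were higher and 9 lower. The growth factor gene Csf2 (GM-CSF) stood at 64.1 CPM against 4.73 and 0.362 in the endothelial gate, and 7.95% of thinned gated cells had a UMI against 0.0824% of endothelial-gate barcodes. The neutrophil chemokine gene Cxcl5 was at 141 against 17.9 CPM, the membrane-bound chemokine gene Cxcl16 at 161 against 26.9, the alarmin gene Il33 at 122 against 32.2, Tnf at 25.8 against 2.70, and Mif, the highest of the list, at 1142.1 against 470. Fibroblasts also carried some of these: Cxcl5 was at 141 and Il33 at 339 CPM in the fibroblast gate. The lymphocyte chemokine genes Cxcl9 and Cxcl10 were at 0.344 against 12.0 and 7.57 against 37.6, the stromal chemokine gene Cxcl12 at 2.87 against 237 and Il6 at 0.917 against 46.1.

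Among ligands that act on vessels 5 of 17 were higher and 10 lower. Vegfa was at 36.9 CPM (33.0 to 41.2) against 7.63 in the others, 1.59 in the endothelial gate and 47.2 in the fibroblast gate. The semaphorins Sema3e (26.8 against 1.88) and Sema3c (51.7 against 13.2), Pdgfc (19.5 against 2.50) and Angptl4 (139 against 53.9) were also higher. The endothelial products Apln (5.50 against 279), Angpt2 (4.24 against 197) and Edn1 (2.41 against 95.8) were lower.

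Adhesion genes split by cell type. Of 25 that passed 8 were higher and 10 lower. The laminin gene Lamb3 (24.9 CPM against 1.34) and the integrin genes Itgb4 (47.2 against 18.6), Itga3 (54.6 against 13.8) and Itga2 (56.0 against 20.0) were higher, as were Cd44 (242 against 31.4) and Cd24a (345 against 100). The vascular basement membrane genes Col4a1 (61.6 against 1030.8), Col4a2 (43.3 against 870) and Lama4 (2.98 against 155) were lower. Of 19 protease and inhibitor genes 3 were higher and 9 lower. Plat, the tissue plasminogen activator, stood at 690 CPM against 151, the epithelial serine protease gene Tmprss2 at 32.2 against 1.85 and Timp2 at 307 against 135, while the stromal metalloprotease genes Mmp2 and Mmp3 were at 1.83 against 41.1 and 0.688 against 33.0.

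Mesenchymal genes were mixed. Of 19 that passed 3 were higher (Cdh2, S100a4 and Axl) and 13 lower, with a median log2 ratio of -1.89 over the others and -0.44 over the endothelial gate. Vim, the intermediate filament of mesenchymal cells, was abundant in every set, at 2092.6 CPM in the gate and 2436.1 in the others. N-cadherin gene Cdh2 was at 37.4 against 3.82 CPM and Axl at 58.4 against 17.1. The factors that drive epithelial-mesenchymal transition were low, with Zeb1 at 21.6 against 104, Zeb2 at 7.91 against 16.6 and Snai1 at 0.688 against 42.0. Zeb2 and Col3a1 turned to slightly higher over the endothelial gate, with log2 ratios of 0.62 and 0.40.

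Genes listed for other cell types were present at levels that differed by list. The 20 endothelial genes summed to 1797.6 CPM in the gate against 27241.8 in the endothelial gate, and the median gene reached 1.85% of its endothelial level. The most abundant was Igfbp7 at 1112.9 CPM against 13654.5, followed by Ly6c1 at 270 against 1165.6. None of the 20 was at 0. The 7 lymphatic genes summed to 48.5 CPM, led by Ccl21a at 33.5, and the 10 pericyte genes to 43.9, led by Acta2 at 25.7. The 11 fibroblast genes summed to 173 CPM against 31041.2 in the fibroblast gate, led by Dcn at 76.1. Of 20 immune genes 6 had no UMI, and the sum of 154 CPM, against 149 in the other barcodes and 77.1 in the endothelial gate, was mostly Cd14, an endotoxin co-receptor, at 131 CPM. After thinning 20.8% of gated cells had a Cd14 UMI and 2.43% of endothelial-gate barcodes. The erythroid genes summed to 2.52 CPM. Podoplanin gene Pdpn, an antigen of the depletion, was at 3.44 CPM against 50.2. Whether these levels are free RNA, doublets or expression was not tested.

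Clustering the gated cells alone, without the 9 gate genes, gave 7 clusters. The genes that lead each are named by their log2 ratio over the other gated cells and define the clusters, so they are descriptions. Cluster 1 (224 cells, 33.9%) was led by the mitotic genes Aurkb, Kif20a, Plk1 and Cenpe and the histone gene Hist1h2ap, had the highest median depth (17055 UMIs), and 87.1% of its thinned cells passed the G2 and M mark. Cluster 2 (161 cells, 24.4%) was led by Inhba, Tnfrsf23, Csf2 and Kctd11, with Csf2 at 146 CPM and Spp1 at 19769.7. The hypoxia gene Bnip3 was at 102 CPM in it, 105 in cluster 3 and 163 in cluster 7. Only 6.92% of its thinned cells passed the mark. Cluster 3 (93 cells, 14.1%) was led by Ifitm1, Aldoc, Tmigd1, Rbp2 and Sprr1a, and had the highest summed glycolysis and hypoxia list, 13177.9 CPM. Its share past the mark was 8.79%.

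Cluster 4 (90 cells, 13.6%) held most of the gastrokine UMIs. It was led by Ckmt1, Gkn2, Gkn3, Gkn1 and Ltf, with Gkn3 at 673 CPM against 4.46 in the other gated cells and Gkn1 at 459 against 4.85. The 3 gastrokine genes lie next to each other on chromosome 6, from chr6:87345650-87350942 (Gkn1) to chr6:87383256-87388935 (Gkn3). Agr2 was at 444 CPM in this cluster and at most 48.5 in the others. Other stomach genes were spread differently, with Cldn18 at 171 CPM in cluster 4 and 348 in cluster 1, Tff1 at 77.7 and 369 in cluster 6, and Ctse at 540 in cluster 4 and 165 to 358 in clusters 1, 2, 3, 5 and 6. It also held the highest Epcam, 896 CPM against 25.9 in cluster 1, with Lgals4 at 1974.8 and Cdh1 at 199. In the gate as a whole Epcam had a UMI in 28.2% of cells (17.3% after thinning, against 0.0824% of endothelial-gate barcodes), with a 90th percentile of 675 and a highest value of 4646.5 CPM, in a sort that depleted EpCAM-positive cells. A share of 40.0% of its thinned cells passed the G2 and M mark.

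Cluster 5 (53 cells, 8.03%) was led by Tstd1, Apoc1, Mmp7, Dcdc2a and Lcn2, and had the highest Spp1, 27886.8 CPM, and Onecut2, 1036.2 CPM. The iron-binding lipocalin gene Lcn2 stood at 860 CPM and the antimicrobial lectin gene Reg3b at 159, both products of inflamed epithelia. Its share past the mark was 5.88%. Cluster 6 (25 cells, 3.79%) was led by the trefoil factor gene Tff1 and by Tomm6, Prl2c2, Ifitm1 and Nme2, each of the last 4 with 12 or fewer UMIs. It stood apart in nuclear and short-lived transcripts, with Malat1 at 131 CPM against 3636.5 to 15193.7 in the other clusters, Xist at 46.1 and Fos at 69.2. It had a median of 1137 genes and 4.82% mitochondrial UMIs; whether these cells were damaged was not tested.

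Cluster 7 (14 cells, 2.12%) went against the label. It was led by Ptgis, Upk1b, Slpi, Upk3b and Rspo1, and 5 of its 10 leading genes were on the mesothelial marker list, so it is called mesothelial-like. It had no UMI of Epcam, Cdh1, Onecut2 or Lgals4, 1 of Cdkn2a (11.7 CPM) and a Spp1 level of 140 CPM, and its B2m stood at 3952.9 CPM, against 417 to 667 in the other 6 clusters. These 14 cells held 634 of the Dcn UMIs of the gate, against 30 in all other gated cells, and 635 of the Slpi UMIs, against 16. Without them Slpi turned from a log2 ratio of 3.06 over the other barcodes to -2.28. The fibroblast genes Dcn and Col1a1 in the gate were thus mostly from these cells. In the other 6 clusters H2-K1 ranged from 105 to 231 and H2-D1 from 245 to 330 CPM. Trp53 was below its level in the other barcodes in all 7, between 14.4 and 36.1 CPM. Msln, which is a mesothelial marker and is also expressed by pancreatic tumors, was at 230 to 384 CPM in clusters 1 to 6 and 1049.5 in cluster 7. Of 14 mesothelial genes 6 passed the filter over all gated cells, with 3 higher and 2 lower. Their median log2 ratio was 0.85, and -2.14 without cluster 7.

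**Figure D4:**
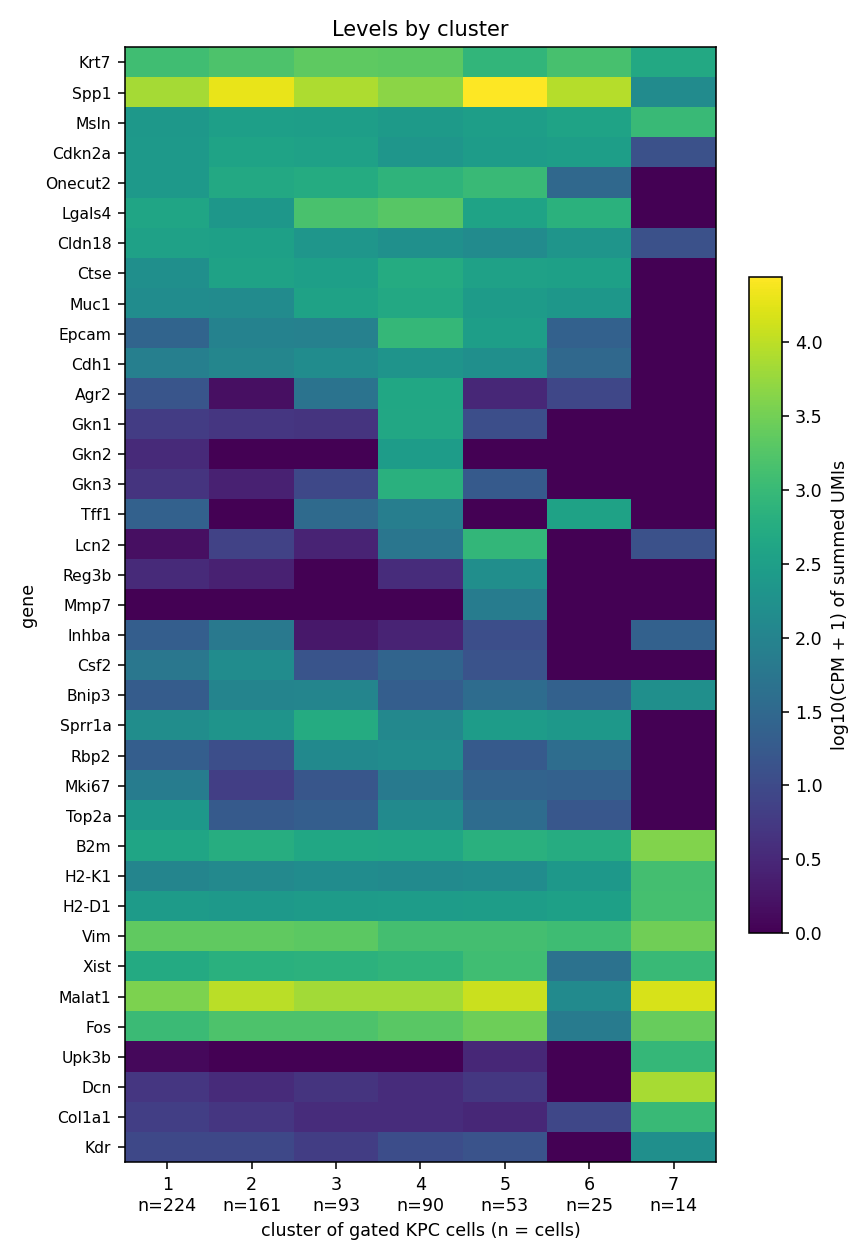
Levels of 37 genes (rows) in the 7 clusters of gated KPC cells (columns, with cell numbers), as log10 of CPM + 1 of summed UMIs by color. Cluster 7 lacks Onecut2, Lgals4 and Epcam and holds Upk3b and Dcn, cluster 4 holds the gastrokine genes, and cluster 6 is low in Malat1, Xist and Fos.

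The same gate in the PyMT library took 296 of 11744 barcodes (2.52%, 2.25 to 2.82), at a median of 6123.5 UMIs. Tumor model, line and library cannot be told apart in this comparison. Of 7385 genes with a mean of 10 CPM or more over both, 843 (11.4%) were at least 2-fold higher in the gated KPC cells and 740 (10.0%) lower, with a median log2 ratio of -0.02. The 10 highest, among genes at 50 CPM or more in KPC, were Plac8, Gsta4, Lgals2, Lgals4, Tm4sf4, Muc1, Pcbd1, Mcpt2, Onecut2 and Rbp4. Plac8 stood at 2977.1 CPM in KPC and at 2 UMIs (0.975 CPM) in PyMT. After thinning, 97.4% of gated KPC cells had a UMI of it against 3.60% of endothelial-gate barcodes. Within the KPC library it was also at 1027.4 CPM in the fibroblast gate and 257.5 CPM in all other barcodes. Tm4sf4, Mcpt2, Onecut2 and Rbp4 had no UMI in the PyMT gate, which puts Onecut2 at least 8.22 higher on the log2 scale against 3 counts. Krt7 was at 10.7 CPM and Cdh1 at 0.487 CPM in the PyMT cells, and Cdkn2a had no UMI there.

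The 10 lowest were Dmp1, Etv1, Ptn, Tslp, Ass1, Hhip, Serpinf1, Fez1, Ibsp and Mmp3. The heparin-binding growth factor gene Ptn was at 407 CPM in PyMT and 1.15 in KPC, Ass1, an enzyme of arginine synthesis, at 358 and 1.61, and the antiangiogenic serpin gene Serpinf1 at 364 and 1.72. The cytokine gene Tslp, Hhip, Fez1 and Ibsp had no UMI in the gated KPC cells. Spp1 was close in both, 10798.5 CPM in KPC and 12182.7 in PyMT. Fibronectin gene Fn1 was at 210 CPM in KPC and 1058.7 in PyMT, S100a4 at 146 and 723, and the epidermal growth factor ligand gene Areg at 206 and 216. H2-K1 and H2-D1 differed by less than 2-fold (log2 ratios of -0.52 and -0.66), B2m by -1.26. The G2 and M share was 52.7% of 294 thinned PyMT cells (46.8 to 58.6).

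**Figure D5:**
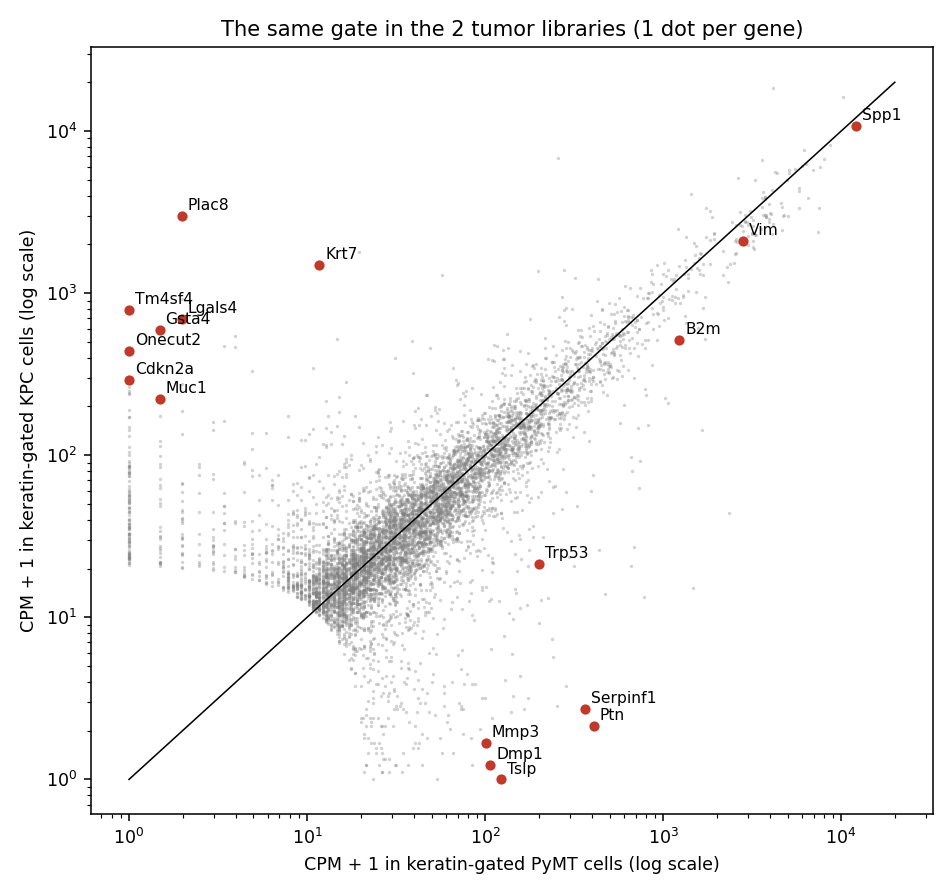
Each grey dot is 1 gene by CPM + 1 in keratin-gated PyMT cells (x) and keratin-gated KPC cells (y), on log scales, for genes with a mean of 10 CPM or more; the line marks equal levels and red dots are genes named in the text. Spp1 and Vim lie near the line, Plac8 and Onecut2 at the upper left, Ptn and Tslp at the lower right.

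The libraries shared 170 barcode sequences, of which 6 were in the KPC gate and 0 in both gates.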

How the data were processed

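The authors aligned reads with Cell Ranger 3.0 (3.0.2 in the matrix header) to mm10 and deposited raw UMI counts per gene and barcode for 2 libraries. The study names both a v2 kit and v3 chemistry for them. The deposited KPC matrix held 10236 barcodes and 44441942 UMIs, of which 9591 passed at least 500 genes and under 10% mitochondrial UMIs. With numpy 2.4.6 and scipy 1.17.1, groups were summed, scaled to CPM and compared by log2 ratio with exact conditional-binomial 95% intervals. CPM intervals are exact Poisson and shares exact Clopper-Pearson. A gene at 0 in 1 group was set to 3 counts over the group, giving a bound. A gene counted as higher or lower at 2-fold. Clusters came from scanpy 1.11.5 (2000 variable genes, 20 components, 15 neighbors, Leiden resolution 0.5, seed 0). Scrublet marked 0 barcodes and so did not work as a doublet caller; doublets were kept. Named genes were those highest or most different in each list, the 15 highest and 10 lowest ratios at 50 CPM or more, 10 each way against PyMT, and 5 per cluster; other named genes were chosen after their values were seen. Levels are per UMI and need no length correction. The members and lists were chosen with earlier results of these data known. Promoters came from RefSeq and gene positions from GENCODE M21. CPM ratios could shift with the mix of cells in the comparison barcodes. Some items under these rules are not reported here.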

Additional observations from a re-analysis of the deposited data

Results flagged for a closer look

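Genes of the fixed lists that were at least 2-fold higher in one keratin gate than in its own library's other barcodes, and at least 2-fold lower in the other, are given here; the difference between libraries was not tested. Higher in KPC and lower in PyMT were Spint2 (log2 ratio 2.29 in KPC and -2.19 in PyMT) and Angptl4 (1.36 and -2.94). The opposite held for Zeb2 (-1.07 in KPC and 3.16 in PyMT), Tgfbi (-5.51 and 1.11), Tnc (-4.53 and 1.78), Col3a1 (-3.93 and 2.05), Pdgfa (-2.51 and 1.58), Cxcl14 (-5.50 and 2.81), Ccl7 (-4.78 and 1.77), Csf1 (-1.76 and 3.27), Mmp2 (-4.48 and 1.36), Mmp3 (-5.59 and 4.64), Pdpn (-3.87 and 1.23), Col6a3 (-3.65 and 2.69), Postn (-5.57 and 1.46) and Rgs5 (-3.43 and 1.45). The other barcodes also differed: the fibroblast gate held 292 barcodes in KPC and 15 in PyMT, so the reference for stromal genes such as Col3a1 (725 CPM in KPC and 79.3 in PyMT) was not the same. Within the gates Col3a1 stood at 47.6 CPM in KPC and 328 in PyMT, and Mmp3 at 0.688 and 99.9. In data outside the comparisons, 11 KPC barcodes removed by the gene and mitochondrial filter met the keratin gate, at a median of 2835 UMIs.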

How the results depend on the processing

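The share of KPC barcodes in the gate, 6.88%, became 8.71% with a barcode filter of 1000 genes and 5% mitochondrial reads, 3.58% with no UMI of the excluding genes, and 11.4% when the gate was applied to barcodes thinned to 2000 UMIs; 10.2% of barcodes of that depth were in the gate unthinned. The counts of 820 higher and 1719 lower genes became 390 and 884 at 4-fold, and 2728 and 4112 with no filter on the level. Centring on the median gene, which shifted all ratios by 0.19, gave 1047 and 1432. The G2 and M share of 41.3%, against 25.2% of the other barcodes, became 34.0% against 26.6% with no UMI of the excluding genes. In that setting the cells dropped from the gate were counted among the other barcodes. The share became 56.6% against 38.8% with at least 1 UMI, and 33.5% against 21.7% with at least 3 UMIs. Unthinned it was 66.4% against 22.9%. Thinned to 1000 UMIs it was 30.2% against 15.3%, and thinned to 4000 UMIs 50.4% against 42.6%. The clusters numbered 5 and 10 at resolutions 0.3 and 0.8, and 8 with another seed; clusters 6 and 7 kept all of their cells together under each, while cluster 1 kept 53.6% at resolution 0.8 and 54.0% with another seed, and most of clusters 2, 3 and 5 merged at resolution 0.3.

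Of 16 gene lists with a median past 2-fold, 14 stayed past it with no UMI of the excluding genes and 13 over the endothelial gate. With no UMI of the excluding genes, the epithelial median fell from 4.13 to 2.52 and the duct median from 4.04 to 2.46. There too the dropped keratin-rich cells stood in the reference, so the falls are no measure of levels in the gate. Of 266 named or listed genes past 2-fold, 259 kept their direction over the endothelial gate. Those that reversed there were Aldh1a2 (1.31), Col3a1 (0.40), Ctrb1 (1.30), Dcn (1.57), Mfap5 (0.25), Prss2 (0.89) and Zeb2 (0.62), and the acinar median (1.10). The last comparisons were added after seeing the data: leaving out the other keratin-rich barcodes kept all 266 directions, and leaving out the mesothelial-like cluster reversed Slpi (-2.28) alone among them and moved the mesothelial median from 0.85 to -2.14. No paired analysis was possible because each model has 1 library. With 1 library per model, no value carries an error between animals.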

Other observations

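Granule protease genes usually taken as products of mast cells or basophils (Mcpt genes) or of cytotoxic lymphocytes (Gzme) were abundant in the gated KPC cells; these genes were chosen after their values were seen. Mcpt8 stood at 542 CPM (527 to 558), Mcpt2 at 443, Mcpt1 at 261, Gzme at 121 and Mcpt4 at 84.5, against 3.84, 8.86, 1.92, 0.398 and 0.181 CPM in the endothelial gate. After thinning to 2000 UMIs, 43.9% of gated cells had a UMI of Mcpt2 and 42.4% of Mcpt8, against 0.309% and 0.391% of endothelial-gate barcodes. Defining genes of mast cells and basophils were at or near 0 in the same cells: Cpa3, Fcer1a, Ms4a2, Hdc and Tpsb2 had no UMI, Kit had 1 and Gata2 had 6. In gated PyMT cells Mcpt1, Mcpt2 and Mcpt4 had no UMI and Mcpt8 had 6. All 7 clusters but the mesothelial-like one carried them, with Mcpt8 at 222 to 987 CPM. The 5 genes lie in 1 stretch of chromosome 14 of mm10, from Mcpt1 (chr14:56017971-56020384) through Mcpt2, Mcpt4 and Mcpt8 to Gzme (chr14:56117626-56120625). They belong to a family of similar genes, so reads could have been split among copies.

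Xist stood at 650 CPM in the gated cells and 1085.4 in the other barcodes, and 4 Y-linked genes had no UMI in either. Of 5 Schwann cell genes, S100b led at 5.50 CPM. Of 11 genes of immune checkpoints and modulators that passed the level filter, 1 was higher and 4 were lower. The higher one was the galectin gene Lgals1, at 3353 CPM against 1120.7. The ATP-degrading ectoenzyme gene Entpd1 was at 1.83 CPM against 105, and the phagocytosis inhibitor gene Cd47 at 363 against 340.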
